A study of Mus musculus with 38 samples.

Results

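The 83 rows described here are the genes of the cytosolic ribosomal proteins among the 13260 genes of a mouse RNA-Seq table. They were chosen by symbol alone: every symbol that begins with Rpl or Rps and goes on as a ribosomal protein name does, which 97 rows matched, after 9 ribosomal S6 kinases and 5 rows named as pseudogenes were left out. Of the 83 members, 42 encode proteins of the large (60S) subunit, 31 encode proteins of the small (40S) subunit and 3 encode the proteins of the ribosomal stalk (Rplp0, Rplp1 and Rplp2). Another 5 are paralogs of a standard subunit gene (Rpl22l1, Rpl36al, Rpl39l, Rps27l and Rps4y2, the last annotated as a transcribed pseudogene), and 2 match the rule without encoding a protein of the mature ribosome (Rps19bp1 and Rpl7l1).

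A ribosome holds 1 copy of nearly every one of these proteins, so cells make them in matched amounts and their mRNAs are among the most abundant of a growing cell. Many of these mRNAs begin with a terminal oligopyrimidine (TOP) tract, a run of C and T at the cap through which mTORC1 and Larp1 control their translation. Plasma cells and the myeloma cells derived from them secrete large amounts of antibody, and protein synthesis is one of their leading activities. Ribosomal protein genes have also left many processed pseudogenes in the genome, nearly identical copies that compete with the parent gene for short reads.

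Libraries were made from 100 sorted cells each with a full-length cDNA protocol. C57Bl/KaLwRij mice of 8 to 10 weeks were given vehicle (healthy) or 1000000 5TGM1-GFP cells (myeloma-bearing) into a vein, and the hindlimb bones were taken on day 23. Endothelial cells (EC, CD31+), stromal progenitors (SP, Sca1+ALCAM-) and osteoprogenitors (OP, ALCAM+Sca1-) of the bone lining were sorted from both kinds of mice, and GFP+ myeloma cells (MM) from the bone lining and from the central marrow of myeloma-bearing mice. There were 5 libraries in each group, or 4 in each OP group, and 38 in all. 5TGM1 is 1 cultured mouse line that carries green fluorescent protein, so the step from niche cells to myeloma cells is also a step from host tissue to a transplanted line, and these cannot be told apart. The labels do not state whether libraries of a group came from separate mice, so p-values measure the spread between libraries, which may be technical.

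The deposited values were RPKM, read numbers divided by transcript length and by library size, and the reads behind them could be recovered as whole numbers for all 13260 genes. Library totals ran from 9735031 to 34883291 reads. The markers of the labelled cell type were present in every group. The summed RPKM of 4 plasma cell markers was 3152 to 9835 in the 10 MM libraries and at most 10.7 in the 28 niche libraries, with no marker of that list at 0 throughout a niche group. Endothelial markers summed to 527 to 1338 RPKM in EC and to at most 9.20 RPKM in the other niche libraries, and osteoprogenitor markers to 6218 to 54870 RPKM in OP. The stromal progenitor list, which holds Ly6a, was at 941 to 3030 RPKM in SP and higher, at 2250 to 8771 RPKM, in EC. Neutrophil markers (2 of 4 listed genes were in the table) were at 6402 RPKM in 1 SP library of healthy mice and at 6791 RPKM in 1 SP library of myeloma-bearing mice, against at most 83.5 and 67.7 in the other SP libraries. The 4 macrophage and osteoclast markers summed to 170 to 896 RPKM in bone lining MM and 405 to 637 RPKM in central marrow MM, where 1 of the 4 was at 0 throughout, to 0.876 to 194 RPKM in EC and to 103 to 626 RPKM in SP and OP, and their part in the differences between MM and niche was not tested.

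Windows of 30 bases around the annotated transcript start are shown for members whose levels carry the results below: 3 of the 5 largest rises in myeloma cells (Rpl24, Rpl36a and Rps26), and 2 of the 3 paralogs that fell, Rpl22l1 and Rpl39l, with the standard gene Rpl39. They run from 15 bases before the start to 15 bases after it, 5′ to 3′ on the transcribed strand, from RefSeq on build GRCm38.p6. Capitals mark TTTCC or CTTCC wherever they fall in the window, also before the start, as in Rpl39l. Other runs of C and T, as in Rps26 and Rpl39, are not marked. Capitals therefore do not tell which members have a TOP tract. The start used is that of the table of RefSeq promoters, which for Rpl39l lies downstream of the annotated start of the gene (chr16, position 10170197) and for the others is the same.
Rpl24 (chr16:55966260-55966289, plus strand): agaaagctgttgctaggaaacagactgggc
Rpl36a (chrX:134585639-134585668, plus strand): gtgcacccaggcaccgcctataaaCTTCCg
Rps26 (chr10:128626492-128626521, minus strand): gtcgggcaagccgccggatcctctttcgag
Rpl39 (chrX:37085208-37085237, minus strand): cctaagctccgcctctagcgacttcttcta
Rpl22l1 (chr3:28805493-28805522, plus strand): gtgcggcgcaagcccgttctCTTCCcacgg
Rpl39l (chr16:10170213-10170242, plus strand): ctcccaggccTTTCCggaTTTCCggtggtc

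RefSeq windows were at hand for 62 of the 83 members, 73 windows in all. TTTCC on the transcribed strand was found in 17 of the 73 (23.3%) and in 4.58% of all 32851 windows of the same length. CTTCC was found in 14 (19.2%) and in 6.63% of all windows, and 26 of the 73 (35.6%) held at least 1 of them, against 10.9% of all windows. CCGGAA, a motif that ETS factors bind, was searched on both strands of the 300 bases around the start and was found in 35 of the 73 windows (47.9%) and in 14.9% of all. Its reverse, TTCCGG, overlaps TTTCC and CTTCC where GG follows, as it does at both capital stretches of Rpl39l.

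The 83 members varied widely in level within a library, on the scale of RPKM, which is per length. Among the highest means over the 38 libraries were those of Rps14 of the 40S platform (2535 RPKM) and the paralog Rps27l (1647 RPKM), and the lowest were those of Rpl28 (3.25 RPKM), Rpl21 (3.93 RPKM) and Rpl5 (4.34 RPKM), which carries 5S rRNA into the 60S subunit. Of the 83, 5 members had a mean of at least 1000 RPKM, 26 of 100 to 1000, 43 of 10 to 100 and 9 under 10. The spread between libraries of a group followed the level. The median SD of log2(RPKM + 1) was 0.41 for the 5 members of the top class, 0.38 for the 26 below them, 0.69 for the 43 of the third class and 0.73 for the 9 lowest, whose median read number per library was 55. Across the 83 members Spearman's rank correlation between mean RPKM and the within-group SD was -0.667, a description over genes that share libraries and depth.

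The members also differed in how much of their sequence is their own. Reads that align to several places were discarded by the authors' counting at its default, so 50-base windows were taken along each member's transcripts, and those found in no other annotated gene were counted. Their share ran from 4.90% in Rpl35 to 100%, as in Rps19bp1 and Rpl39l, and was under 50% in 28 members. Spearman's rank correlation between this share and mean RPKM was 0.405 over the 83 members, and -0.450 between the number of other genes with a shared window and mean RPKM. The median of the mean RPKM was 21.5 in the 28 members under 50% and 79.9 in the 55 at or above it. The part of this in the levels was not tested, and the values of Rpl24 (18.3%), Rpl36a (14.5%), Rpl5 (14.6%), Rps6 (15.4%), Rpl23a (14.3%) and Rps4x (27.75%) rest on a small part of their transcripts.

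The share of all RPKM that fell on the 83 members separated myeloma cells from every niche population. In bone lining MM it was 7.21%, 7.86%, 8.34%, 8.38% and 8.65% of the summed RPKM of a library, and in central marrow MM 7.25%, 7.58%, 7.65%, 7.84% and 7.89%. The highest of the 28 niche libraries was an EC library of healthy mice at 3.16%, so the 10 MM libraries and the niche libraries did not overlap. The share is a sum over the members and was given no test. In reads rather than RPKM it was 3.54% to 4.49% in the MM libraries and 0.509% to 1.35% in the niche libraries.

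**Figure D1:**
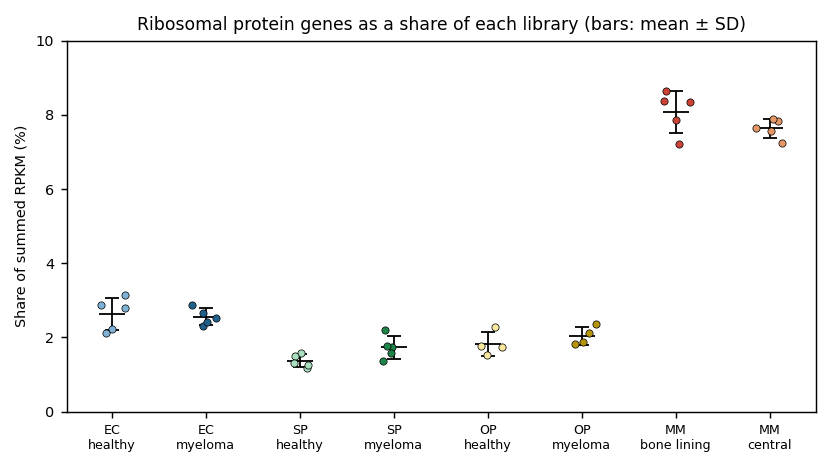
Summed RPKM of the 83 ribosomal protein genes as a percentage of the summed RPKM of all genes, 1 point per library and with the mean and SD of each of the 8 groups. The 10 MM libraries lie between 7.21% and 8.65%, and the 28 niche libraries between 1.18% and 3.16%.

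Within the niche the order of the mean shares was EC of healthy mice (2.63% ± 0.442, SD, n = 5), EC of myeloma-bearing mice (2.56% ± 0.219, n = 5), OP of myeloma-bearing mice (2.05% ± 0.248, n = 4), OP of healthy mice (1.83% ± 0.325, n = 4), SP of myeloma-bearing mice (1.73% ± 0.303, n = 5) and SP of healthy mice (1.37% ± 0.174, n = 5). The 2 EC groups differed by less than their SD, as did the 2 OP groups. The lowest EC library of healthy mice (2.13%) lay above all 5 SP libraries of healthy mice (highest 1.59%) but below the highest OP library of healthy mice (2.29%). In SP the mean was 0.365 percentage points higher in myeloma-bearing mice, where values of 1.37% to 2.19% overlapped the 1.18% to 1.59% of healthy mice.

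The balance of the subunits varied less. The summed RPKM of the 60S and stalk genes over that of the 40S genes was 0.557 ± 0.0705 (SD, n = 5) in bone lining MM, 0.546 ± 0.0267 (n = 5) in central marrow MM, 0.582 ± 0.0598 (n = 5) and 0.589 ± 0.0838 (n = 5) in EC of healthy and myeloma-bearing mice, and between 0.706 and 0.763 in the 4 SP and OP groups. The ratio ranged over 0.484 to 0.647 in bone lining MM and 0.569 to 0.872 in SP of healthy mice.

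Bone lining MM were then compared with the 3 niche populations of the same kind of mice, each weighted equally, to see which members made up the difference. With limma on log2(RPKM + 1), a Benjamini-Hochberg adjusted p under 0.1 over all 11363 genes tested and an absolute log2 fold change above 1, 68 of the 83 members were higher in MM, against a background of 20.1% of all genes tested. The calls covered 34 of 42 60S genes, 27 of 31 40S genes, all 3 stalk genes, the paralogs Rps27l and Rpl36al, and both rows that are no ribosomal protein. Another 3 members were lower, against 19.8% of all genes, and all 3 were paralogs: Rps4y2, Rpl39l and Rpl22l1. Rpl39l had no read in MM and at most 1 read in any EC library of these mice. It passed the filter, above 1 RPKM in at least 4 libraries, only through OP and SP libraries. The median log2 fold change was 1.63 over the members and 0.15 over all genes tested, and 78 of the 83 members had a positive value. The median was 1.64 for 60S and 1.65 for 40S genes.

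**Figure D2:**
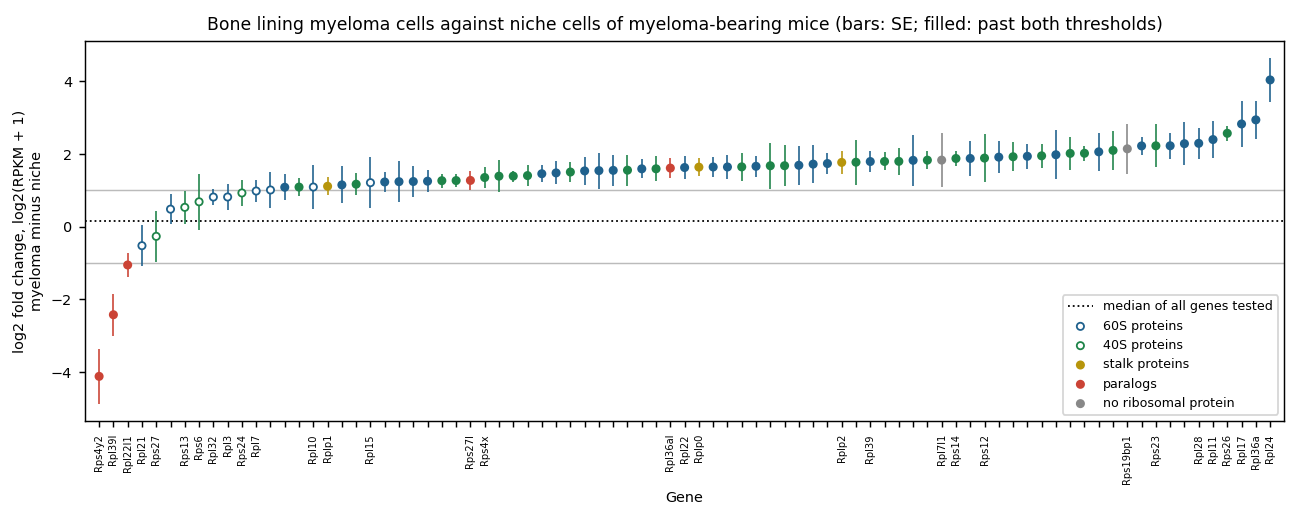
Log2 fold change of each of the 83 members on the log2(RPKM + 1) scale, bone lining MM minus the mean of EC, SP and OP of myeloma-bearing mice, ordered by size, coloured by class and labelled for genes described in the text, with bars for the standard error and filled points past both thresholds. The 42 60S genes and 31 40S genes run through the ranking together, and 3 paralogs stand at its low end.

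Of the members tested, 41 had every bone lining MM library above every one of the 14 niche libraries, against 4.27% of all genes tested, and none had every MM library below, against 3.18% of all genes. These 41 were 19 60S, 19 40S and 2 stalk genes and 1 paralog. In a comparison that shares no library with this one, central marrow MM against the niche of healthy mice, 64 members were higher (background 21.5%) and 3 lower (background 18.7%). In it 36 had every MM library above every niche library (background 5.95%) and none had every MM library below (background 4.23%). Both MM groups carry the same library letters and are of the same transplanted line, so sharing no library need not mean separate mice. All 64 were among the 68, or 94.1% of that list, and the 3 lower members were again Rps4y2, Rpl39l and Rpl22l1. Here too Rpl39l had no read in MM and passed the filter through niche libraries alone.

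The niche populations were also taken 1 at a time, sharing the same MM libraries. Against EC of myeloma-bearing mice 62 of 82 members tested were higher in MM (background 24.4%), against SP 68 of 82 (background 23.5%) and against OP 65 of 83 (background 24.5%). The median log2 fold change of the members was 1.49, 1.63 and 1.57 in these comparisons, and that of all genes 0.49, 0.35 and 0.39. How a library is scaled moves both medians: with scaling by total reads the median was 2.27 over members and 0.62 over all genes, and with upper quartile scaling 2.04 and 0.44, so the members stood 1.65 and 1.60 above all genes under these and 1.48 above them with the authors' scaling. The gap was 1.15 with a pseudocount of 0.1 and 0.90 with voom-limma on the recovered reads, where the median of all genes was 0.74.

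Rps26, a 40S protein at the mRNA exit channel, had the smallest p-value of the members. In bone lining MM it was at 2778, 2905, 3381, 3523 and 4384 RPKM, and in the 14 niche libraries of myeloma-bearing mice at 359 to 1131 RPKM with a median of 573 RPKM. The groups did not overlap, and its log2 fold change was 2.57 ± 0.21 (SE, limma adjusted p = 2.70e-09). Central marrow MM were at 2486 to 3390 RPKM.

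The largest rise among the members was that of Rpl24, a 60S protein that bridges to the small subunit. It was at 21.4, 30.4, 42.1, 47.3 and 76.9 RPKM in bone lining MM, and in the niche libraries of myeloma-bearing mice at 0 to 15.1 RPKM with a median of 1.64 RPKM. The log2 fold change was 4.04 ± 0.60 (SE, limma adjusted p = 1.87e-05), and every MM library was above every niche library of these mice. Among healthy mice 1 EC library reached 31.5 RPKM.

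Rpl36a, a 60S protein, was at 30.8 to 48.7 RPKM in bone lining MM and at 0.219 to 10.8 RPKM in the niche libraries of myeloma-bearing mice (log2 fold change 2.94 ± 0.52, SE, limma adjusted p = 0.000143). Rpl17, at the peptide exit tunnel, was at 21.2 to 54.9 RPKM in bone lining MM (2.83 ± 0.64, limma adjusted p = 0.00153). It overlapped the niche of myeloma-bearing mice, whose highest library was at 22.9 RPKM, and among healthy mice 1 EC library reached 93.9 RPKM. Rpl11, which joins Rpl5 and 5S rRNA and can bind Mdm2, was at 14.9 to 23.7 RPKM against 0.403 to 9.51 RPKM (2.4 ± 0.50, limma adjusted p = 0.000741). These members are low in level, and their niche values rest on few reads, as few as 4 in a library for Rpl11, 2 for Rpl36a and 0 for Rpl17.

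Rps14, the most abundant member, rose by less on the log2 scale and with a smaller error. It was at 4549 to 7350 RPKM in bone lining MM and at 924 to 2595 RPKM in the niche of myeloma-bearing mice (log2 fold change 1.88 ± 0.20, SE, limma adjusted p = 1.71e-07). The groups did not overlap.

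The stalk proteins, which recruit the elongation factors to the ribosome, rose together. Rplp0, their anchor, was at 682, 719, 954, 1051 and 1481 RPKM in bone lining MM and at 173 to 498 RPKM in the niche of myeloma-bearing mice, without overlap (log2 fold change 1.64 ± 0.26, SE, limma adjusted p = 3.44e-05). Rplp2 was at 370 to 579 RPKM against 88.7 to 281 RPKM (1.77 ± 0.31, limma adjusted p = 0.000105). Rplp1 was at 1160 to 1810 RPKM against 362 to 1318 RPKM and overlapped (1.11 ± 0.25, limma adjusted p = 0.00168). In central marrow MM against the healthy niche Rplp1 had a log2 fold change of 0.96, just under the threshold.

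Of the 83 members 12 passed neither call. Rpl32, Rpl3, Rps24 and Rpl7 had an adjusted p under 0.1 with log2 fold changes of 0.82 to 0.98. Rps6, whose protein is the classic substrate of S6 kinase, had a log2 fold change of 0.69 ± 0.77 (SE, limma adjusted p = 0.519), with 5.80 to 29.6 RPKM in bone lining MM inside the 0.855 to 46.1 RPKM of the niche of myeloma-bearing mice. Rps27 was at 10.3 to 25.4 RPKM in bone lining MM and at 0.0697 to 73.8 RPKM in that niche (-0.26 ± 0.70, limma adjusted p = 0.799), and Rpl21 had the lowest value among standard subunit genes, -0.52 ± 0.56 (limma adjusted p = 0.503).

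The paralogs split in their direction, and Rpl22 and Rpl22l1 moved opposite ways. Rpl22 is a 60S protein, and Rpl22l1 is its close relative that can replace it and whose mRNA Rpl22 protein is known to restrain. Rpl22 was at 154, 173, 219, 220 and 242 RPKM in bone lining MM, above all 14 niche libraries of myeloma-bearing mice, which ran from 37.1 to 126 RPKM with a median of 62.0 RPKM (log2 fold change 1.63 ± 0.33, SE, limma adjusted p = 0.000496). Rpl22l1 was at 87.9, 129, 156, 171 and 217 RPKM in bone lining MM and at 122 to 812 RPKM in that niche, with a median of 285 RPKM, and the ranges overlapped (-1.05 ± 0.32, limma adjusted p = 0.0160).

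The fall of Rpl22l1 lay close to the fold threshold. Under 8 of 34 alternatives it was no longer called. Leaving out EC replicate E, SP replicate D or OP replicate D of myeloma-bearing mice or bone lining MM replicate G gave -0.98, -0.99, -0.95 and -0.87. Upper quartile scaling gave -0.64 (limma adjusted p = 0.0899), scaling by total reads -0.41 (adjusted p = 0.274), and EC or SP alone as the niche -0.87 (adjusted p = 0.078) and -0.78 (adjusted p = 0.134). In central marrow MM it was at 76.0 to 121 RPKM. The log2 ratio of Rpl22 to Rpl22l1, which no scaling of a library can change, was -0.50, 0.36, 0.49, 0.90 and 0.98 in bone lining MM and 0.63 to 1.37 in central marrow MM. It was below 0 in all 28 niche libraries, at -3.66 to -0.04. By group it was lowest in OP, at -3.11 ± 0.35 (SD, n = 4) in healthy and -2.78 ± 0.33 (n = 4) in myeloma-bearing mice, and -1.68 ± 0.87 (n = 5) in SP of healthy mice.

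Rpl39l, the relative of the exit tunnel protein Rpl39 and best known from male germ cells, had no read in any of the 10 MM libraries, where 3 reads would give 0.138 to 0.279 RPKM. In OP of myeloma-bearing mice it was at 15.6, 62.6, 104 and 126 RPKM, and in OP of healthy mice at 0.492, 7.29, 29.1 and 97.6 RPKM. Its mean in OP of myeloma-bearing mice was at least 384-fold higher than 3 reads per library of bone lining MM, a bound that covers counting error only, and its mean in SP of myeloma-bearing mice at least 16.5-fold higher. In EC of myeloma-bearing mice it was at 0, 0, 0, 0.036 and 0.0665 RPKM, below 3 reads per library like MM, and it passed the filter on low values in neither the comparison of MM with EC alone nor that with SP alone. It also had reads in 2 EC libraries of healthy mice (14.6 and 80.3 RPKM) and in 3 SP libraries of healthy mice (8.44, 31.0 and 69.6 RPKM), and in SP of myeloma-bearing mice it was at 0, 0, 0.0498, 8.02 and 8.52 RPKM. The values thus ranged from none to high within a group. It was the only member tested here that was called between OP and SP of myeloma-bearing mice.

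Rpl39 itself, at 425 to 917 RPKM in bone lining MM against 92.0 to 308 RPKM in the niche of myeloma-bearing mice, was higher in MM without overlap (log2 fold change 1.80 ± 0.29, SE, limma adjusted p = 4.57e-05). With Rpl39l at the bound set by 3 reads the median over the members stays at 1.63 by construction, since its value is below the median either way.

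Rps4y2 is the symbol the table gives to the row that RefSeq lists as Rps4l, annotated as a transcribed pseudogene (chr6:148354656-148355596, GRCm38.p6), and a relative of the X-linked Rps4x. It was at 0, 0, 0.0417, 0.0753 and 1.17 RPKM in bone lining MM and at most at 0.0534 RPKM in central marrow MM. In the niche of myeloma-bearing mice it was at 0.0791 to 77.4 RPKM with a median of 25.3 RPKM (log2 fold change -4.12 ± 0.76, SE, limma adjusted p = 0.000226), and 1 EC library lay within the MM range. Rps4x was higher in MM, at 191 to 224 RPKM against 55.0 to 133 RPKM without overlap (1.35 ± 0.29, limma adjusted p = 0.000929). Among healthy mice 1 EC library reached 209 RPKM.

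**Figure D3:**
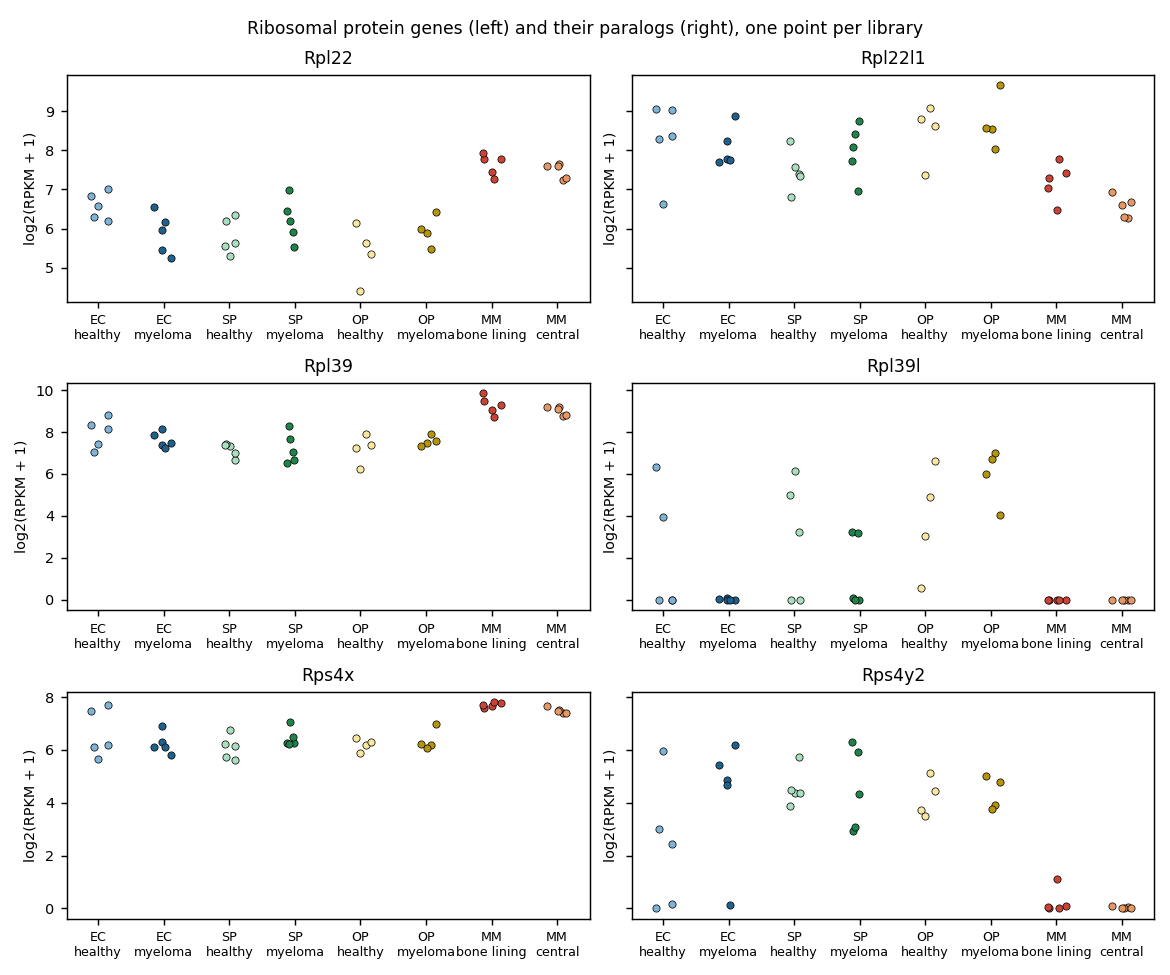
Levels of Rpl22, Rpl39 and Rps4x (left) and of their relatives Rpl22l1, Rpl39l and Rps4y2 (right) as log2(RPKM + 1), 1 point per library in 8 groups. Rpl22 is above 150 RPKM in all 10 MM libraries and at most at 128 RPKM in the niche, while Rpl39l is at 0 in all 10 and Rps4y2 at or under 1.17 RPKM.

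The other paralogs, Rps27l and Rpl36al, were higher in MM, as were both rows that are no ribosomal protein. Rps27l, a relative of Rps27 that p53 can induce, was at 2096 to 4085 RPKM in bone lining MM and 473 to 2180 RPKM in the niche of myeloma-bearing mice (log2 fold change 1.27 ± 0.26, SE, limma adjusted p = 0.000515), where Rps27 did not pass the test. Rpl36al was at 391 to 592 RPKM against 85.2 to 342 RPKM without overlap (1.61 ± 0.29, limma adjusted p = 0.000139). Rpl7l1, a pre-ribosome protein related to Rpl7, had a log2 fold change of 1.83 ± 0.74 (limma adjusted p = 0.0606), and Rps19bp1, which binds Rps19 and Sirt1, one of 2.15 ± 0.69 (limma adjusted p = 0.0199). Against SP of myeloma-bearing mice alone Rps27l was at 0.95 (limma adjusted p = 0.00246) and Rps19bp1 at 1.19 (limma adjusted p = 0.217), and neither was called. Against EC alone Rpl7l1 was at 1.22 (limma adjusted p = 0.358) and was not called.

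**Figure D4:**
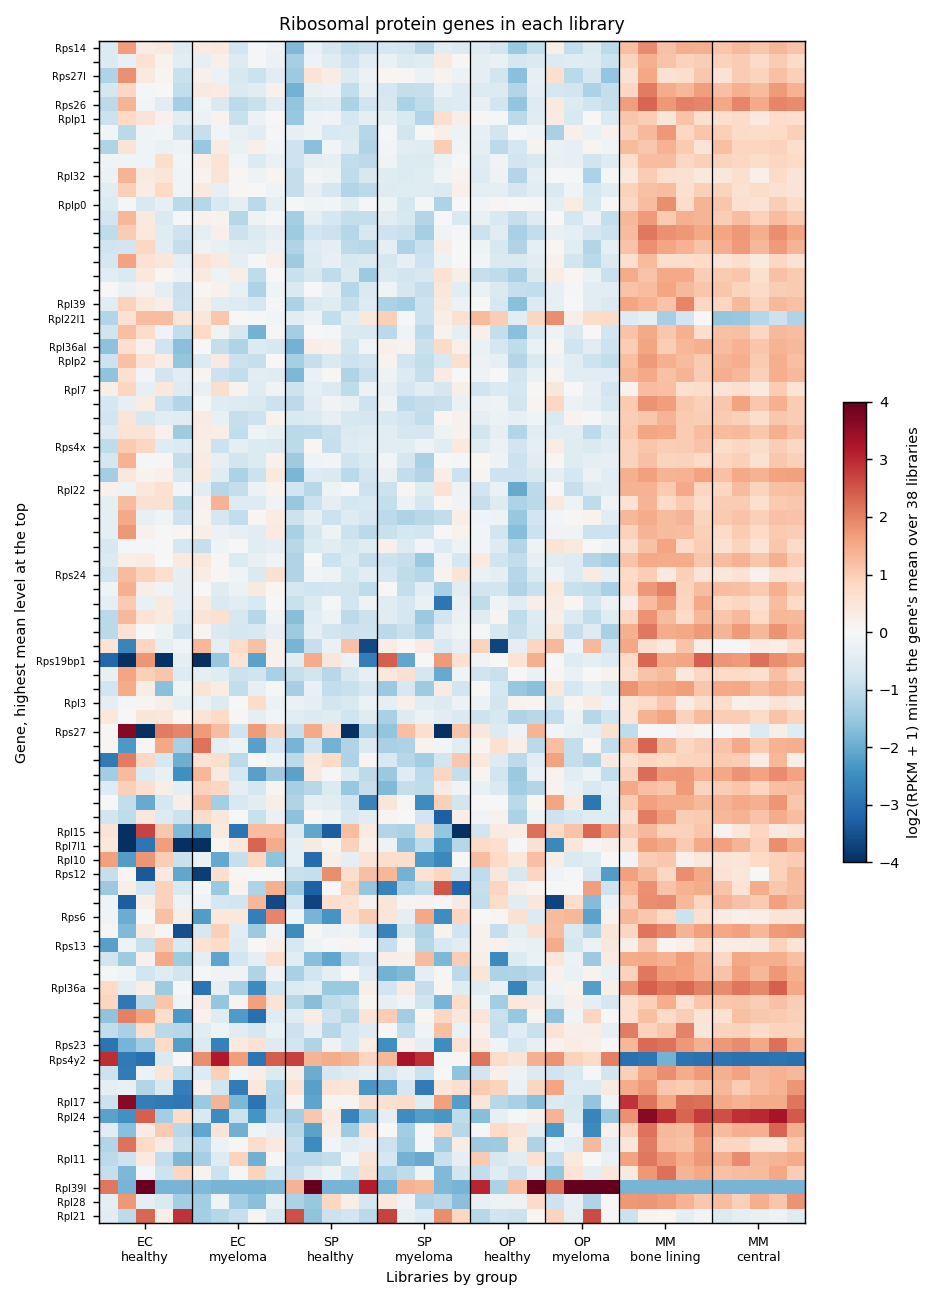
Log2(RPKM + 1) of the 83 members (rows, highest mean at the top, labelled for genes described in the text) in the 38 libraries (columns, by group), each relative to the gene's mean over all libraries, on a scale of -4 to 4. In 41 rows every bone lining MM library is above every niche library of myeloma-bearing mice, and Rpl39l and Rps4y2 are below their mean in all 10 MM libraries.

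Myeloma burden was next asked of each niche population. In EC none of 82 members was called between myeloma-bearing and healthy mice (background 0% of 7880 genes), none had an unadjusted p under 0.05, and voom-limma on the recovered reads called none. With all 38 libraries in the EC fit 165 genes were higher and 93 lower of the 7880, and with voom-limma on all 38 it was 215 and 80, in both cases with no member among them. The same fits gave 22 higher and 9 lower genes in SP (26 and 15 with voom-limma) and 7 and 9 in OP (5 and 3), again with no member. In SP none of 83 was called (background 0% of 8747 genes), 1 had an unadjusted p under 0.05, Rpl8 of the 60S subunit, and voom-limma called none. In OP none of 83 was called (background 0.0115%), none had an unadjusted p under 0.05, and voom-limma called none. Of all genes tested, 5.25%, 5.00% and 4.87% had an unadjusted p under 0.05 in EC, SP and OP. The median log2 fold change of the members was -0.11 in EC, 0.22 in SP and 0.16 in OP, against 0.07, -0.00062 and -0.03 over all genes tested.

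The sign of the EC median depends on scaling: with total reads it was 0.07 against 0.19 for all genes. The median standard error was 0.78 for 60S genes and 0.68 for 40S genes in EC, 0.67 and 0.54 in SP, and 0.64 and 0.50 in OP, all on the log2 scale, so that a log2 fold change of 1 was under 2 of these standard errors. The highest and lowest members were Rps4y2 (1.94 ± 1.38, SE) and Rpl21 (-1.58 ± 0.97) in EC, Rpl9 (1.38 ± 0.89) and Rpl39l (-1.58 ± 1.27) in SP, and Rpl39l (2.15 ± 1.07) and Rpl23a (-1.42 ± 0.93) in OP, and none passed the test. Leaving out the 2 SP libraries with high neutrophil markers left the count in SP at 0. No member's response was called as different between populations. In the interaction of SP with OP and in that of EC with SP and OP, limma called none of 83 (backgrounds 0% of 10735 and 0% of 11713 genes), and voom-limma called none. With limma 0 and 5 members had an unadjusted p under 0.05, as did 4.1% and 6.0% of all genes.

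Bone lining MM and central marrow MM were compared with smaller errors, a median SE of 0.25 for 60S and 0.22 for 40S genes. None of 81 members was called (background 0.203% of 8857 genes), and voom-limma called none. With limma 3 members had an unadjusted p under 0.05 (Rps12, Rpl22l1 and Rpl15), as did 5.98% of all genes. The median log2 fold change was 0.14 over members and -0.01 over all genes, and 62 of 81 members had a positive value, a direction that upper quartile scaling turned to a median of -0.0064 against -0.16. The members thus stood 0.15 above all genes under both. Rps12, which sits at the 40S beak, had the highest value at 0.81 ± 0.31 (SE, limma adjusted p = 0.770), and Rpl22l1 the next at 0.64 ± 0.25 (limma adjusted p = 0.775). Rpl10, the last 60S protein to be loaded, had the lowest at -0.22 ± 0.31.

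**Figure D5:**
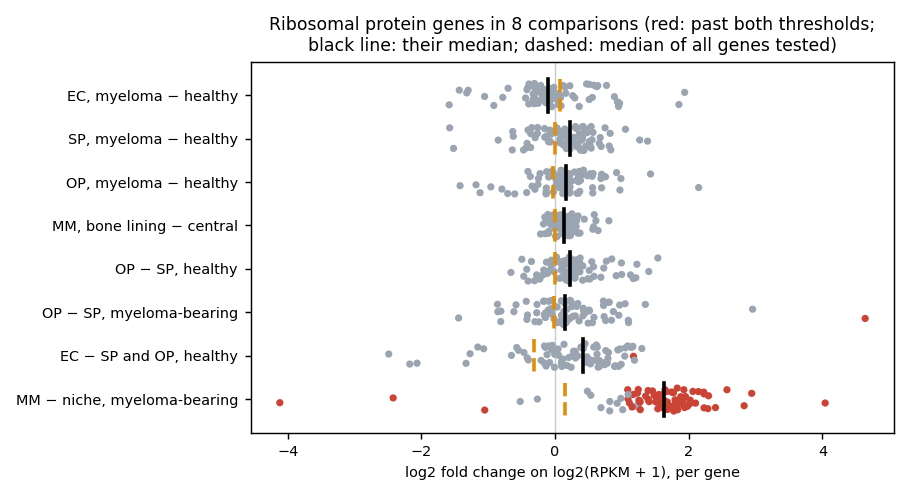
Log2 fold changes of the members on the log2(RPKM + 1) scale in 8 comparisons, 1 point per gene, with the median of the members (black) and of all genes tested (dashed). The medians of the members are between -0.11 and 0.42 in the 7 comparisons within the niche or within MM, and 1.63 between MM and niche, where 71 points are past both thresholds.

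The niche populations were then compared with each other. OP and SP of healthy mice had none of 82 members called (background 3.58%), and none by voom-limma. With limma 1 member, Rpl22l1, had an unadjusted p under 0.05, as did 13.1% of all genes. OP and SP of myeloma-bearing mice had 1 of 83 called higher in OP, Rpl39l (background 1.60%), with a log2 fold change of 4.64 ± 1.04 (SE, limma adjusted p = 0.0241). The call was lost without OP replicate G or replicate I of myeloma-bearing mice, with an adjusted p of 0.117 in both cases. Rpl15, a core 60S protein, was next at 2.96 ± 0.91 (limma adjusted p = 0.126), with 30.4 to 88.0 RPKM in OP and 0 to 27.6 RPKM in SP.

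EC of healthy mice against SP and OP of healthy mice gave 1 member of 83 called higher in EC, Rps14 (background 7.95%), and none called lower (background 13.7%), where 16 members had an unadjusted p under 0.05, as 29.0% of all genes did. Voom-limma called 3 members higher and 1 lower, against 7.47% and 14.3% of all genes. Rps14 was at 1353, 1405, 2472, 2580 and 6385 RPKM in EC and at 586 to 1667 RPKM in SP and 716 to 1389 RPKM in OP, so that EC overlapped both. Its log2 fold change was 1.17 ± 0.34 (SE, limma adjusted p = 0.0229), and without EC replicate L, the library at 6385 RPKM, it was 0.82 (adjusted p = 0.0639), below the fold threshold, with no member called. That library had 4501 genes above 1 RPKM and a scaling factor, the library size behind its RPKM over its recovered reads, of 0.639, against 5834 to 7463 genes and 0.899 to 1.18 in the other EC libraries of healthy mice, and the part of this in the result was not tested. The count moved with the processing, from 0 to 11 members over the other alternatives, and the split was 9 higher and 0 lower with total read scaling, where 9.32% of all genes were higher and 12.5% lower. With upper quartile scaling it was 0 higher and 2 lower, where 6.63% of all genes were higher and 15.5% lower. The members had a median of 0.42 against -0.31 for all genes, a gap of 0.73 that was 1.07 with a pseudocount of 0.1 and 1.36 with voom-limma. Rps19bp1 (-2.49 ± 1.03, limma adjusted p = 0.116) and Rpl7l1 (-2.17 ± 0.89, limma adjusted p = 0.109), neither a ribosomal protein, had the lowest values.

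Over the 8 group means of log2(RPKM + 1), the members with a mean of at least 10 RPKM that ranged most were Rpl39l (5.94), Rpl24 (4.54), Rps4y2 (4.53), Rps19bp1 (4.25), Rpl36a (3.72), Rpl17 (3.41), Rps23 (3.30) and Rpl7l1 (3.25). Those that ranged least were Rps13 (1.11), Rpl3 (1.12), Rps6 (1.14), Rpl32 (1.23) and Rps24 (1.33). Rps23, at the 40S decoding centre, was at 20.3 to 39.8 RPKM in bone lining MM and at 0.300 to 11.7 RPKM in the niche of myeloma-bearing mice (log2 fold change 2.23 ± 0.59, SE, limma adjusted p = 0.00549). The genes outside the members whose 8 group means were most like those of Rpl24 were Wdr43 (Pearson r = 0.993), which acts in 40S subunit assembly, Gfer (0.992) and Gusb (0.987). For Rps4y2 they were Tgfbr1 (0.996), Csf1 (0.988) and Pink1 (0.987), and for Rpl39l Cldn10 (0.942), Nrbp2 (0.9395) and Ramp1 (0.926). With 8 groups and the same libraries behind every point these values are a description.

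Ribosomal proteins that carry other names were also called higher in the comparison of bone lining MM with niche: Gnb2l1 (also Rack1, a 40S scaffold; 1.88 ± 0.22, SE, limma adjusted p = 4.85e-07), and Fau, which makes a 40S protein fused to a ubiquitin-like protein (2.33 ± 0.43, limma adjusted p = 0.000209). Fau was at 54.0 to 113 RPKM in bone lining MM and at 6.09 to 39.2 RPKM in the niche of myeloma-bearing mice.

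Of 76 mitochondrial ribosomal protein genes, which serve the ribosome of the mitochondrion, 42 were higher in bone lining MM and none was lower, where 20.1% of all genes were higher and 19.8% lower. Their median log2 fold change was 1.66 against 0.15 for all genes, with Mrpl47 (4.46 ± 0.91) and Mrpl46 (4.45 ± 0.96) at the top and Mrpl33 (-0.77 ± 0.34) and Mrps6 (-0.65 ± 0.48) at the bottom. Against the same background, of 93 ribosome biogenesis factors tested 59 were higher and none lower (median 1.66), led by Noc4l (3.84 ± 0.69) and Nhp2 (3.67 ± 0.71), both needed to process or modify rRNA. Sbds (-0.45 ± 0.45), which matures the 60S subunit in the cytoplasm, had the lowest value. Of 12 tested genes of elongation factors and proteins listed with them 7 were higher and none lower (median 1.29), with Eef1e1 (2.39 ± 0.84), which despite its symbol belongs to the multi-tRNA synthetase complex, and Eif5a (1.85 ± 0.48) at the top and Eif5a2 (-1.83 ± 0.89) and Eef2k (-0.82 ± 0.49), the kinase of Eef2, at the bottom, neither of which passed the test.

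Of 32 initiation factors 14 were higher and 2 lower, where 20.1% of all genes were higher and 19.8% lower. Their median was 0.96 against 0.15 for all genes. Eif2s1, a subunit of eIF2, was at 3.17 ± 0.81 and Eif3g at 2.18 ± 0.34, while Eif4g2 (-1.36 ± 0.38) and Eif1 (-1.05 ± 0.32) fell. Of 16 tested genes of mTORC1, Larp1 and Myc, 3 were higher and none lower, a share near the 20.1% of all genes, with a median of 0.21 against 0.15 for all genes. They included Eif4ebp1, an inhibitor of cap-dependent translation under mTORC1, which was at 2.30 ± 0.53 (SE, limma adjusted p = 0.00177), whereas Max (-1.10 ± 0.80) and Deptor (-1.04 ± 0.80) did not pass the test. Neither these 5 lists nor Gnb2l1 and Fau had a gene called between myeloma-bearing and healthy mice in EC, SP or OP, where 0 of 7880, 0 of 8747 and 1 of 8664 genes were called in all.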

How the data were processed

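Per the labels and the study's methods, the authors sequenced SmartSeq2 libraries of polyadenylated RNA, aligned reads with STAR 2.4.0 to GRCm38 (mm10), counted them per gene with featureCounts (Subread 1.4.5-p1), kept genes above a low CPM limit and deposited RPKM values scaled with edgeR. Whole reads were recovered from the steps of these RPKM values. Here limma 3.58.1 in R 4.3.3 (linear fits, empirical Bayes with trend) was run on the whole table as log2(RPKM + 1), keeping the genes that exceeded 1 RPKM in 4 or more libraries of a comparison. A call needed a log2 fold change beyond 1 in either direction and a two-sided p below 0.1 after Benjamini-Hochberg adjustment. Fits held only the groups compared, and scripts were tested on simulated data. Named genes were the 5 largest rises and falls called, the 2 highest and lowest values of each comparison, the 8 widest and 5 narrowest ranges, the 3 highest and lowest means, the paralogs with their partners and the stalk. Those of the 12 uncalled members given with values, and Rps23 beyond its range, were described after their values were seen. Some genes that this rule names are not reported here. The members and lists were chosen with earlier results of these data known. Alternatives were another pseudocount, no filter, no fold minimum, no trend, all 38 libraries, other scalings, voom-limma on recovered reads, a replicate block and each library left out. Total read scaling, single niche groups, central marrow cells against healthy niche, own-sequence members and runs without neutrophil-rich libraries were added after seeing the data. Intervals and floors cover counting error only.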

Additional observations from a re-analysis of the deposited data

Results flagged for a closer look

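The search covered 118 groups of values, of named members and of the share of summed RPKM. In 9 of them, all of members, a library had a gap to the others that was large for its group. Chance gives about 1 in 20. EC replicate L of healthy mice was high for 3 members: Rps14 at 6385 RPKM (others 1353 to 2580), Rps26 at 2244 RPKM (others at most 803) and Rps27l at 4958 RPKM (others 597 to 1809). This library stood apart as a whole, with 4501 genes above 1 RPKM (others 5834 to 7463) and a scaling factor of 0.639 (others 0.899 to 1.18). EC replicate M of healthy mice was high for Rpl39l at 80.3 RPKM, where the others were at 0 to 14.6. Rps4x was high in SP replicate J of myeloma-bearing mice at 133 RPKM (others 73.6 to 88.1) and in OP replicate D of myeloma-bearing mice at 124 RPKM (others at most 72.9). Rps4y2 was high in EC replicate C of healthy mice at 61.3 RPKM (others 0 to 7.09), in SP replicate C of healthy mice at 51.9 RPKM (others 13.6 to 21.1) and in bone lining MM replicate G at 1.17 RPKM (others 0 to 0.0753).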

How the results depend on the processing

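Of 238 recomputed counts of called members 214 stayed within 1.5 times the reported count, and of 823 recomputed values of named members 802 kept their call and direction, 21 lost the call and none reversed. Between MM and niche the count was 65 to 73 with 1 library left out and 63 to 79 otherwise, while the share of all genes called ran from 33.8% to 50.7% over the refits on all libraries compared. In EC, SP and OP against healthy mice, and between the MM sites, it was 0 under every alternative run. For OP against SP of myeloma-bearing mice it was 2 with all 38 libraries, upper quartile scaling or total read scaling, where 6.2%, 3.2% and 3.5% of all genes were called. With 1 library left out it was 0 to 2 (0 without OP replicate G or I, 2 without SP replicate G). For EC against SP and OP it was 3 with no fold minimum, 4 with a pseudocount of 0.1, 7 with no filter, 10 with all 38 libraries, 0 with no trend, 2 with upper quartile scaling, 4 and 11 with voom-limma on the compared or on all libraries, 9 with total reads and 0 to 7 with 1 library left out (0 without EC replicate L, 7 without EC replicate C or O), while over the refits on all libraries compared 6.05% to 10.7% of all genes were called higher and 8.92% to 21.8% lower. The cause of these moves was not tested.

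Libraries that shared a letter between groups deviated together at most weakly (correlations of deviations -0.0427 to 0.085, own letter highest in 9 of 23 pairs). Such values cannot show whether they came from the same mice, and the main fits held no pairing. With the replicate block the count was 3 for EC against SP and OP and 69 for MM against niche. The difference in share was 5.97 percentage points between MM and niche, 3.01 in reads, 5.53 without paralogs and rows that are no ribosomal protein, 5.10 without Rps14 and 5.37 over members with at least 50% own windows. In reads it was 0.194 between OP and SP of healthy mice and 0.472 between EC and both, against 0.460 and 1.03 in RPKM. Rpl7l1 lost its call in 5 alternatives, with adjusted p of up to 0.358.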

Other observations

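The 5 rows named as pseudogenes of ribosomal protein genes were left out of the members. Their highest values in any library were 35.7 RPKM for Rps19-ps3, 23.4 RPKM for Rps15a-ps4, 16.1 RPKM for Rps15a-ps6, 8.44 RPKM for Rpl34-ps1 and 6.74 RPKM for Rpl31-ps12.

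The mitochondrial ribosomal protein genes had a median log2 fold change of -0.41 in SP and -0.32 in OP of myeloma-bearing against healthy mice and of 0.29 in EC, against -0.00062, -0.03 and 0.07 over all genes tested. None of these genes was called in the 3 comparisons by limma, where 1 gene was called in all, in OP, and no set test was run.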
